A study of Mus musculus with 9 samples.

Results

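Transcript levels of 39 interferon-responsive genes were examined in the mouse hippocampus. The genes come from a list given by symbol, and B2m, H2-K1, H2-D1 and Tap1 among them act in antigen presentation. All 39 of 39 were found among the 23412 gene symbols of the deposited table, 38 under the listed symbol and Ifi27 under its RefSeq synonym Ifi27l1, which is used below. Of these, 36 passed the filter on low values (TPM, a transcript abundance scaled for length, of at least 1 in at least 3 of the 9 libraries), which left 14336 genes in all. Mx1, Oas1a and Oas2 did not pass. Bulk RNA sequencing was done on hippocampus of wild-type (WT) mice at postnatal day 21, in 3 groups of 3 libraries. The control group had a sham treatment. The PFOS P1-7 group was exposed to perfluorooctane sulfonate (PFOS), a persistent perfluorinated surfactant, on postnatal days 1 to 7, and the PFOS P8-14 group on days 8 to 14, in both cases through milk, since the dams received 1 mg/kg/day by gavage. The labels do not say whether libraries came from separate animals, and give no strain, litter, sex or batch, so p-values measure only the spread between these libraries, which may be technical.

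Type I interferons bind the Ifnar1/Ifnar2 receptor, whose kinases activate transcription factors of the STAT family. Stat2 among these joins Irf9 in a complex that binds interferon-stimulated response elements in promoters and switches on a broad antiviral programme, whereas interferon gamma acts in part through Irf1 on guanylate-binding proteins and antigen presentation. In the brain, microglia, endothelium, astrocytes and neurons can all respond, and a low tonic level of the programme is present without infection.

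Promoters of 5 members that varied between the libraries are shown first. Of these, 4 were chosen because their windows match the core motif given below, and Irf7 because its window has no match. Oasl2, which varied more than Ifit1 and Gbp3 and has no match, is not shown. Promoter windows (RefSeq, GRCm38.p6, 250 bases before to 50 after the start) were found for 30 of the 39 members. They were searched on both strands for GAAANNGAAA (TTTCNNTTTC on the other strand), a core of the interferon-stimulated response element, with overlapping matches allowed. It occurred in 14 of 30 members (46.7%) and in 3.99% of 27025 genes with a window. A match is a description of letters, not a shown binding site. The 200 bases before the start of 5 members follow, 5′ to 3′ on the gene's strand, with motif matches in capitals. Isg15 lies on the minus strand (chr4:156200819-156201018) and has 3 overlapping matches beginning 78, 72 and 66 bases before the start. Ifit1 (plus, chr19:34640689-34640888) has matches at 104 and 85 bases, and Ifit3 (plus, chr19:34583329-34583528) at 156 and 122. In Gbp3 (plus, chr3:142559844-142560043) overlapping matches begin 45 and 39 bases before the start. Another Gbp3 window, for a different start (chr3:142560106-142560405), has 0 matches. A gene was counted as having the motif if any of its windows had a match. Irf7 (minus, chr7:141266425-141266624) has 0 matches to these letters in the window. For Ifit3, Gbp3 and Irf7 the start used by the promoter table lies inside the RefSeq gene record.
Isg15: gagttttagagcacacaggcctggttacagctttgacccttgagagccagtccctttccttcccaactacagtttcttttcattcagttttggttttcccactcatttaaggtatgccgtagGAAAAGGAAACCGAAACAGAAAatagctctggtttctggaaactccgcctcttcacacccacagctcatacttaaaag
Ifit1: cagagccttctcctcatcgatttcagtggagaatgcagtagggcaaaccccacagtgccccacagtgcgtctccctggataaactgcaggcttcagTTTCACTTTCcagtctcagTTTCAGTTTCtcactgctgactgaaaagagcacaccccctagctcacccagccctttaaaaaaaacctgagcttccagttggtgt
Ifit3: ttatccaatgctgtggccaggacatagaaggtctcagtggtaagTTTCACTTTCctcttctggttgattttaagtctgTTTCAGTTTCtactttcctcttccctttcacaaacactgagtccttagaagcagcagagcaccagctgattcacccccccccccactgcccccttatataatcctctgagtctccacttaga
Gbp3: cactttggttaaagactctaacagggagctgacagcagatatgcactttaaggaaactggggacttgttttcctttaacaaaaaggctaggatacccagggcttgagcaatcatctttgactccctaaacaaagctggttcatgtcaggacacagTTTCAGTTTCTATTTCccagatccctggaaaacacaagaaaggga
Irf7: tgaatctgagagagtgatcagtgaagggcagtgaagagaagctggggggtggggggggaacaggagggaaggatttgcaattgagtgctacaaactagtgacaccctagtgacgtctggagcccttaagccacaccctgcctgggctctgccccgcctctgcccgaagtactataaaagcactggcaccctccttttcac

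A single control library stood apart for most members. Control replicate 2 was the highest of the 9 libraries for 24 of 36 tested members (66.7%), where it was highest for 11.5% of all tested genes. Ifih1 tied for the highest there, and 31 of 36 members were highest or second there. Relative to each gene's mean over the 9 libraries, the members' median on the log2(TPM + 1) scale was 0.45 in control replicate 2. It was -0.16 and -0.33 in control replicates 1 and 3, between 0.02 and 0.13 in PFOS P1-7 and between -0.26 and -0.03 in PFOS P8-14. Control replicate 3 was the lowest library, or tied for it, for 23 members. For all tested genes the median in control replicate 2 was -0.08. The raised library did not hinge on scaling: it was highest for 28 members with median-of-ratios scaling, 29 with quantile normalization and 28 with the trend on transcript length removed. Under these settings it was highest for 17.6% to 20% of all tested genes. The members were listed with single raised libraries in view, so these counts are a description.

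**Figure D1:**
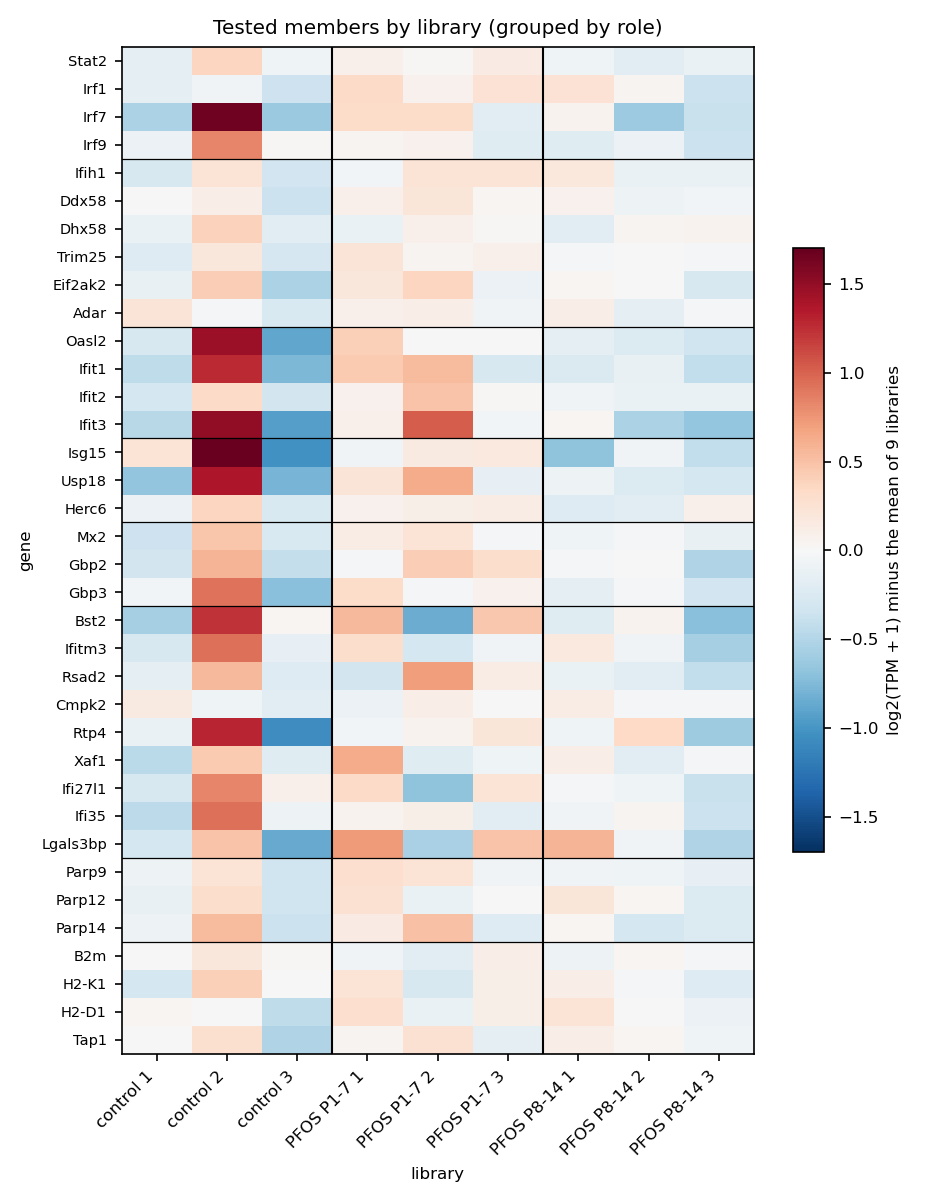
Deviation of log2(TPM + 1) from the mean of the 9 libraries (colour) for the 36 tested members (rows, grouped by role) in each library (columns, vertical lines between groups). The column of control replicate 2 is the darkest red, with a member median of 0.45, and that of control replicate 3 is mostly blue, with a median of -0.33.

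The largest single excess was that of Isg15, a ubiquitin-like protein that is conjugated to targets during the interferon response (chromosome 4, 156199424 to 156200818, mm10). Its level was 7.89, 23.13 and 2.71 TPM in control replicates 1 to 3, 6.25, 7.41 and 7.47 TPM in PFOS P1-7, and 3.71, 6.24 and 4.66 TPM in PFOS P8-14. Control replicate 2 was 2.93 times the next library, control replicates 1 and 3 lay on either side of all 6 exposed libraries, and the exposed groups were apart by only 0.01 TPM. Usp18, which removes Isg15 from its targets and damps receptor signalling, stood at 0.77, 6.29 and 0.62 TPM in control, at 1.54 to 3.35 TPM in PFOS P1-7 and at 1.28 to 1.65 TPM in PFOS P8-14. Its ratio of control replicate 2 to the mean of the other controls, 9.05, was the highest of the tested members. Herc6, a ligase for Isg15 in mouse, ranged from 1.19 to 2.39 TPM and was also highest in control replicate 2.

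Among the transcription factors, Irf7, the amplifier of type I interferon production, had the same highest and lowest libraries as Isg15 (chromosome 7, 141263183 to 141266499). It measured 2.78, 16.21 and 2.53 TPM in the controls, 5.76, 5.78 and 3.85 TPM in PFOS P1-7, and 4.71, 2.56 and 3.22 TPM in PFOS P8-14. Control replicate 2 was 2.80 times the next library, and control replicates 1 and 3 were, with PFOS P8-14 replicate 2, the lowest. Irf9, the DNA-binding partner of Stat2, stood at 9.75, 19.42 and 10.7 TPM in control. Its levels were 10.86, 11.1 and 8.98 TPM in PFOS P1-7 and 9.01, 9.69 and 7.93 TPM in PFOS P8-14. All 3 PFOS P8-14 libraries were below all 3 controls, whereas PFOS P1-7 overlapped them. Stat2 stood at 13.79, 20.33 and 14.68 TPM in control, at 16.65, 15.83 and 17.21 TPM in PFOS P1-7, and at 14.76, 13.44 and 14.3 TPM in PFOS P8-14, so that the exposed groups did not overlap. Irf1, which acts downstream of interferon gamma, was the exception in this role, with no excess in control replicate 2. Its levels were 6.86, 7.44 and 5.92 TPM in the controls, 10.02, 8.22 and 9.4 TPM in PFOS P1-7, and 9.45, 8.07 and 5.86 TPM in PFOS P8-14. Every PFOS P1-7 library was above every control, and PFOS P8-14 overlapped both groups.

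The antiviral effectors differed in their spans. Ifit3, which works with Ifit1 in binding foreign RNA, measured 5.73, 25.48 and 3.86 TPM in the controls, 8.87, 18.08 and 8.04 TPM in PFOS P1-7, and 8.57, 5.43 and 4.93 TPM in PFOS P8-14. PFOS P1-7 replicate 2 was the second highest, and all 3 PFOS P1-7 libraries were above control replicates 1 and 3. Ifit1 ranged from 0.70 to 5.99 TPM with the highest value in control replicate 2. Ifit2 measured 3.76, 6.28 and 3.69 TPM in the controls, 5.14, 7.19 and 4.9 TPM in PFOS P1-7, and 4.57, 4.38 and 4.38 TPM in PFOS P8-14. Here PFOS P1-7 replicate 2 was the highest, and the exposed groups did not overlap. The Ifit genes are neighbours on chromosome 19, and their paralogs, like those of the Oas and Gbp families, may share reads. Oasl2, an oligoadenylate synthetase-like protein, stood at 2.84, 11.66 and 1.51 TPM in control, at 5.13, 3.6 and 3.66 TPM in PFOS P1-7, and at 3.15, 2.94 and 2.67 TPM in PFOS P8-14. Control replicate 2 was 2.27 times the next library, and each PFOS P1-7 library was above each PFOS P8-14 library. Oas1a and Oas2, which make the signal that activates RNase L, did not exceed 2.83 and 0.90 TPM, with the highest values again in control replicate 2. Mx1 did not exceed 1.68 TPM and was highest in PFOS P1-7 replicate 2.

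**Figure D2:**
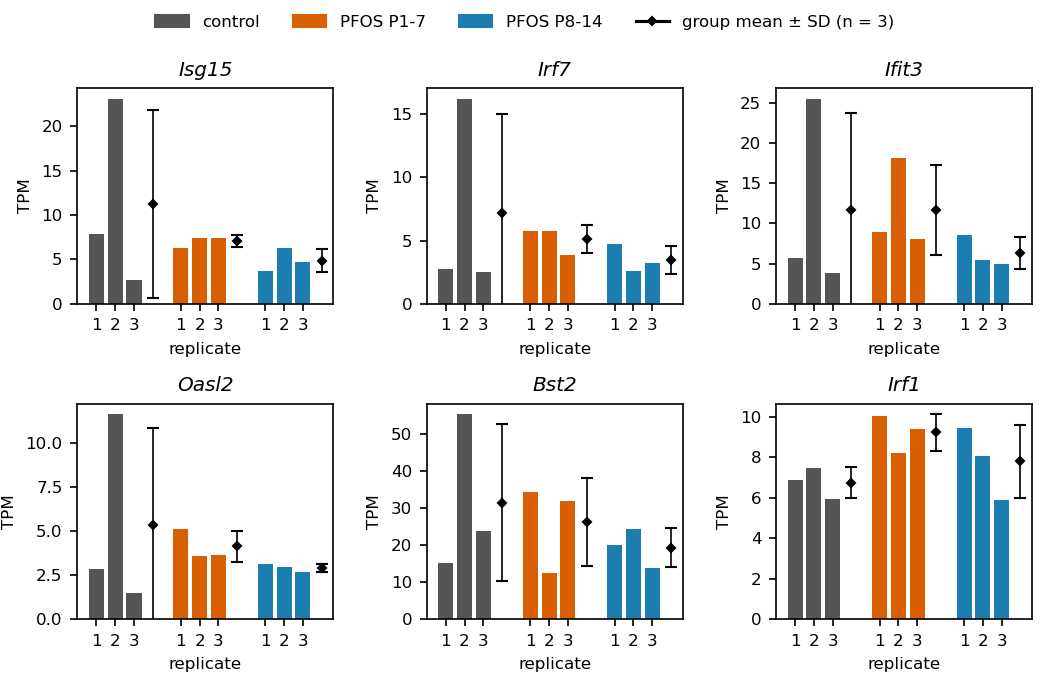
TPM of 6 members in each library (bars, replicates 1 to 3 of each group), with the group mean ± SD (n = 3) as a diamond and line that is cut off at 0 where the SD exceeds the mean. Isg15, Irf7, Ifit3, Oasl2 and Bst2 are highest in control replicate 2 (55.41 TPM for Bst2), whereas Irf1 is highest in PFOS P1-7 replicate 1 (10.02 TPM).

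Of the GTPases, Gbp2, a guanylate-binding protein induced by interferon gamma, measured 1.73, 4.04 and 1.56 TPM in the controls, 2.29, 3.53 and 3.16 TPM in PFOS P1-7, and 2.3, 2.36 and 1.38 TPM in PFOS P8-14. Gbp3 ranged from 2.49 to 9.85 TPM and Mx2 from 2.18 to 4.62 TPM, all 3 genes being highest in control replicate 2. Among effectors at the membrane, Bst2 (tetherin), which holds budding virus at the cell surface, stood at 15.25, 55.41 and 23.66 TPM in control, at 34.24, 12.47 and 31.97 TPM in PFOS P1-7, and at 19.9, 24.2 and 13.69 TPM in PFOS P8-14. Its lowest library was PFOS P1-7 replicate 2, which was among the highest for the Ifit genes, so the members did not all follow 1 order. Ifi27l1 had the same lowest library, at 41.45, 90.16 and 53.44 TPM in the controls, 63.24, 30.92 and 59.48 TPM in PFOS P1-7, and 49.44, 47.9 and 38.56 TPM in PFOS P8-14. Ifitm3, which blocks virus entry, reached 96.92 TPM in control replicate 2, against 33.65 to 61.98 TPM elsewhere. Lgals3bp, a secreted glycoprotein, had its highest level in PFOS P1-7 replicate 1 (39.72 TPM), and Xaf1 had its highest there too (2.54 TPM).

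Of the remaining effectors, Rtp4, a chaperone for receptor transport, measured 3.54, 11.07 and 1.37 TPM in the controls, 3.76, 4.12 and 4.68 TPM in PFOS P1-7, and 3.68, 5.2 and 2.22 TPM in PFOS P8-14. Rsad2 (viperin), which makes a chain-terminating nucleotide, stood at 0.9, 2.09 and 0.82 TPM in control, at 0.7, 2.47 and 1.3 TPM in PFOS P1-7, and at 0.95, 0.87 and 0.58 TPM in PFOS P8-14. Rtp4 was 2.13 times the next library in control replicate 2, whereas Rsad2 was highest in PFOS P1-7 replicate 2. Cmpk2, the neighbour of Rsad2 on chromosome 12, ranged only from 13.34 to 17.08 TPM. Cmpk2 and Adar, an RNA-editing enzyme at 54.3 to 76.2 TPM, were the 2 tested members that were lower in control replicate 2 than in the mean of the other controls. Ifi35 reached 9.25 TPM in control replicate 2 against 2.92 to 4.74 TPM elsewhere. In the PARP family, whose members attach or bind ADP-ribose, Parp9 stood at 2.79, 3.75 and 2.19 TPM in control, at 3.93, 3.75 and 2.87 TPM in PFOS P1-7, and at 2.87, 2.82 and 2.66 TPM in PFOS P8-14. Its groups overlapped. Parp12 ranged from 5.85 to 9.67 TPM and Parp14 from 0.91 to 2.57 TPM.

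Among the cytosolic RNA sensors and their regulators, Ifih1 (MDA5), which detects long double-stranded RNA, measured 1.26, 2.2 and 1.16 TPM in the controls, 1.64, 2.18 and 2.2 TPM in PFOS P1-7, and 2.07, 1.51 and 1.51 TPM in PFOS P8-14. Trim25, which activates the sensor Ddx58 (RIG-I), stood at 4.33, 6.07 and 4.08 TPM in control, at 6.22, 5.37 and 5.56 TPM in PFOS P1-7, and at 5.12, 5.21 and 5.13 TPM in PFOS P8-14. Every PFOS P1-7 value of Trim25 was above every PFOS P8-14 value. Ddx58 ranged from 2.39 to 4.05 TPM, Dhx58 from 0.92 to 1.88 TPM and Eif2ak2 (PKR), which halts translation on binding double-stranded RNA, from 3.04 to 6.87 TPM. Together with Adar, all 6 genes of this role were lowest in control replicate 3, with Dhx58 at the same value in PFOS P8-14 replicate 1.

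Of the antigen presentation genes, B2m, the invariant light chain of MHC class I, had the highest level of all members per transcript length, at 168.3 to 218.4 TPM, and its highest library was control replicate 2. H2-D1, a class I heavy chain, stood at 53.73, 52.78 and 38.77 TPM in control, at 64.11, 48.39 and 56.42 TPM in PFOS P1-7, and at 61.79, 52.73 and 48.98 TPM in PFOS P8-14. These 3 groups overlapped, and control replicate 2 was not raised. H2-K1 ranged from 28.95 to 47.87 TPM and Tap1, a peptide transporter subunit, from 1.96 to 4.12 TPM. H2-K1 and H2-D1 are similar in sequence, and how reads were split between them is not given in the sources used here.

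Over the 36 tested members the ratio of control replicate 2 to the mean of control replicates 1 and 3 ran from 0.951 to 9.05, with a median of 1.91, and exceeded 2 in 17 members. Across all tested genes, 7 (0.0488%) stood in control replicate 2 by more than 1 above the next library on the log2(TPM + 1) scale. They were Isg15, Irf7 and Oasl2 among the members, the interferon-induced Ifi27l2a, the chemokine gene Ccl12, and Rmrp and Gdf1. Ifi27l2a measured 3.72, 22.98 and 3.06 TPM in control and at most 6.61 TPM in the exposed libraries. Over all libraries 18 genes had such a lead, and no member had it in a library other than control replicate 2. Ranked by deviation in control replicate 2, 8 members were among the first 20 genes and 13 among the first 100, with 12 more from the other pathway lists.

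**Figure D3:**
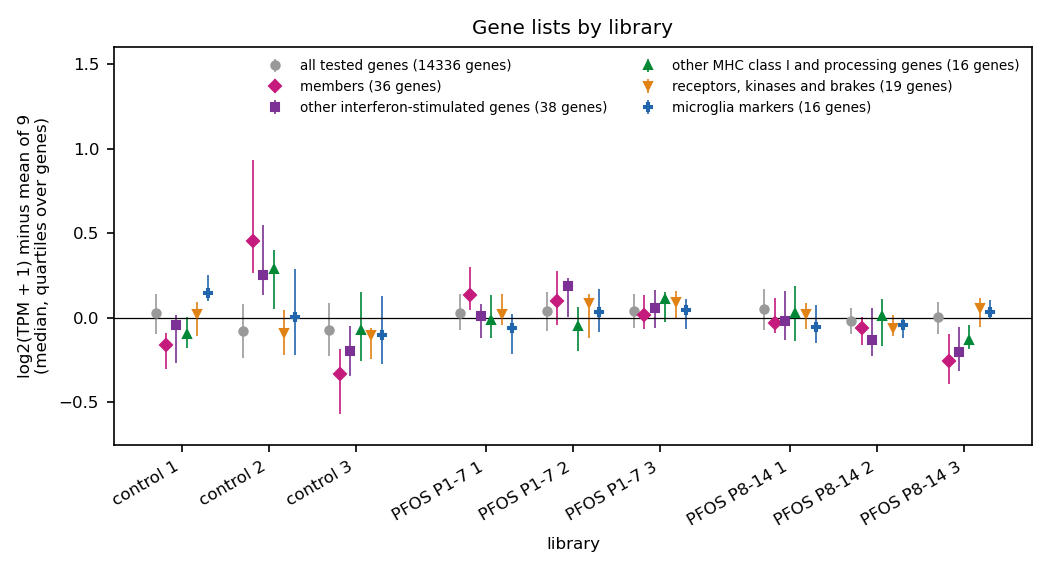
Median (symbol) and quartiles (line) over genes of the deviation of log2(TPM + 1) from the 9-library mean, by library, for all tested genes, the members and 4 other gene lists. In control replicate 2 the members are at 0.45, other interferon-stimulated genes at 0.25 and other MHC class I genes at 0.29, while receptors are at -0.09 and microglia markers at 0.00.

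The rest of the pathway was read from lists of other genes. All 15 interferon ligand genes, among them Ifnb1 and Ifng, were listed at 0 in all 9 libraries. Of the receptors, kinases and brakes, 19 of 20 were tested, with a median deviation of -0.09 in control replicate 2. Ifnar1, a chain of the type I interferon receptor, stood at 19.6 to 22.9 TPM in all libraries. Among other interferon-stimulated genes, 38 of 53 were tested, and 15 of the 38 were highest in control replicate 2 (39.5%). Of the other MHC class I and peptide-processing genes, 16 of 19 were tested, and 9 of the 16 were highest there. Psmb8, an immunoproteasome subunit, reached 9.54 TPM in that library against 3.90 to 6.13 TPM elsewhere. Of 7 MHC class II genes 6 were tested, and 4 of these were highest in PFOS P8-14 replicate 1, where their median deviation was 0.61, and 2 in control replicate 2.

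Members with and without the motif overlapped in their deviations in control replicate 2, which are given as a description. The median deviation in control replicate 2 was 0.58 for 13 tested members with the motif, as printed above for Isg15, Ifit1, Ifit3 and Gbp3, and 0.34 for 16 without it. That library was highest for 10 of the 13 and for 8 of the 16. Among genes that are not members it was highest for 17.1% of 363 with the motif and 10.9% of 10159 without, with medians of -0.04 and -0.08. Irf7 and Oasl2, which led in control replicate 2, had no match in their windows. Usp18, Rtp4, Ifi27l1, Parp14, Mx2, Dhx58 and Parp9 were tested but had no window, so they are in neither set. Their deviations in that library ran from 0.24 (Parp9) to 1.38 (Usp18).

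Cell type markers were summed in each library beside this pattern. In bulk tissue, fewer cells of a type and less RNA per cell cannot be told apart. The 16 microglia markers, all tested, summed to 754.6 to 873.7 TPM in control, 741.5 to 827.8 TPM in PFOS P1-7 and 759.4 to 800.6 TPM in PFOS P8-14, and control replicate 2 (823.1 TPM) was not the highest. Gene by gene, however, 6 of the 16 (37.5%) were highest in control replicate 2, with a median deviation of 0.00. At an unadjusted p below 0.05, 5 of the 16 (C1qa, C1qb, Fcrls, Tmem119 and Trem2) were lower in PFOS P1-7 than in control and 1 was higher. The shares of all tested genes were 5.79% lower and 12.5% higher. With the same controls, 5 (Aif1, C1qa, C1qb, Fcrls and Tmem119) were lower in PFOS P8-14 and 0 higher, against 4.65% and 6.33% of all tested genes. The part of microglia in the result was not tested. The 12 endothelial markers, all tested, summed to 1403 to 1673 TPM over all libraries, with 1480 TPM in control replicate 2. Of 15 markers of T cells, NK cells and B cells, 12 were under 1 TPM in all libraries and Cd3e, Nkg7 and Gzma were listed at 0 throughout. Their sum was 2.25 TPM in control replicate 2 and 2.05 to 3.71 TPM over all libraries. The 8 neutrophil and monocyte markers in the table summed to 13.4 TPM there, against 21.9 TPM in control replicate 3 and 6.35 to 11.35 TPM in the other libraries. The sum of the 6 red blood cell markers in the table was also highest in control replicate 2 (5149 TPM), at 3262 and 4074 TPM in control replicates 1 and 3, 2269 to 4315 TPM in PFOS P1-7 and 2155 to 2619 TPM in PFOS P8-14. In some of the other libraries the order of this sum differed from that of the members. Control replicate 3, lowest for the members, had the third highest sum. PFOS P1-7 replicate 1, second highest for the members, stood at 2269 TPM. Between the exposed groups the directions were alike. The log2 difference, PFOS P8-14 minus PFOS P1-7, was below 0 for all 4 tested red blood cell markers (median -0.45). For the members it was below 0 in 34 of 36 and above 0 in 2. At an unadjusted p below 0.05, 1 of the 4 markers was lower and 0 higher between the windows, against 0.635% and 0.467% of all tested genes. In PFOS P8-14 versus control, 2 of the 4 were lower and 0 higher (median -0.68), against 4.65% and 6.33%. In PFOS P1-7 versus control, 0 passed in either direction (median 0.14). The rank correlation of deviations with the length of the transcript, taken over 13461 genes that are not independent, was -0.27 in control replicate 2, -0.31 in control replicate 3 and between -0.09 and 0.27 elsewhere. The part of the red blood cell markers in the result was not tested. The hippocampal neuron markers, all 12 tested, summed to 3727 to 5155 TPM. Ttr, a choroid plexus gene, was at 9446 to 11626 TPM in 5 libraries and at 35.1 to 107.7 TPM in the other 4, control replicate 2 among these.

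To ask whether the early exposure window left a mark on these genes at day 21, PFOS P1-7 was compared with control. Relative to control, 26 of 36 members were higher and 10 lower, and their median log2 difference was 0.11, where 65.5% of all tested genes were higher with a median of 0.09. By limma with Benjamini-Hochberg adjustment over all tested genes, 0 members and 0 genes (0%) passed an adjusted p of 0.05, the smallest in any gene being 0.181. Without control replicate 1, 2658 genes passed but still 0 members. With no adjustment (p below 0.05), 1 member was higher and 0 were lower, where 12.5% of all tested genes were higher and 5.79% lower. The directions depended on scaling: with median-of-ratios scaling, quantile normalization and the length trend removed, 21, 20 and 18 of 36 members were higher, with medians of 0.05, 0.01 and 0.00. The genes with an unadjusted p below 0.05, 1797 higher and 830 lower in the fit above, were then 1031 and 1417, 1043 and 1329, and 816 and 1363. The 1 member of the fit above was Irf1, whose mean level was 6.74 ± 0.77 TPM for the controls against 9.21 ± 0.91 TPM after early exposure (SD, n = 3), with a log2 difference of 0.40 (SE 0.16; limma unadjusted p = 0.0353, adjusted p = 0.249). It did not reach an unadjusted p of 0.05 with median-of-ratios scaling, quantile normalization or the choroid plexus covariate, nor without control replicate 1 or 3 or PFOS P1-7 replicate 1 or 3. Irf1 was also the only member whose 3 libraries were all above the controls, and 0 members were all below, against 12.3% and 6.56% of all tested genes. Among the next smallest p were Trim25 with 0.22 (SE 0.14), Ifit2 with 0.29 (SE 0.19), H2-D1 with 0.22 (SE 0.15), Ifih1 with 0.26 (SE 0.19) and Irf9 with -0.28 (SE 0.22), all with overlapping groups and limma adjusted p from 0.417 to 0.483.

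The members highest in control replicate 2 had wide errors in this comparison. Irf7 differed by -0.02 (SE 0.52), Isg15 by -0.21 (SE 0.52), Oasl2 by 0.04 (SE 0.47) and Ifit3 by 0.32 (SE 0.55), so that for Ifit3 the 95% confidence interval ran from -0.91 to 1.56. The median SE was 0.23 over the members and 0.13 over all tested genes. Control replicate 2 was singled out because it was high in these members, so values without it are a description and carry no test. Without it, 35 of 36 members were higher in PFOS P1-7, with a median of 0.37 where all tested genes had 0.07. By limma 0 genes passed the adjusted threshold in that fit. In it Ifit3 differed by 1.06, Usp18 by 0.97, Ifit1 by 0.84, Irf7 by 0.73 and Oasl2 by 0.71. All 3 PFOS P1-7 libraries were above control replicates 1 and 3 in 19 of 36 members (52.8%) and below them in 0, against 15.5% and 8.98% of all tested genes. Leaving out the library that was high in the members favours such counts. Without control replicate 3 instead, the lowest library for 23 members, 12 of 36 were higher and 24 lower, and the median was -0.04.

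**Figure D4:**
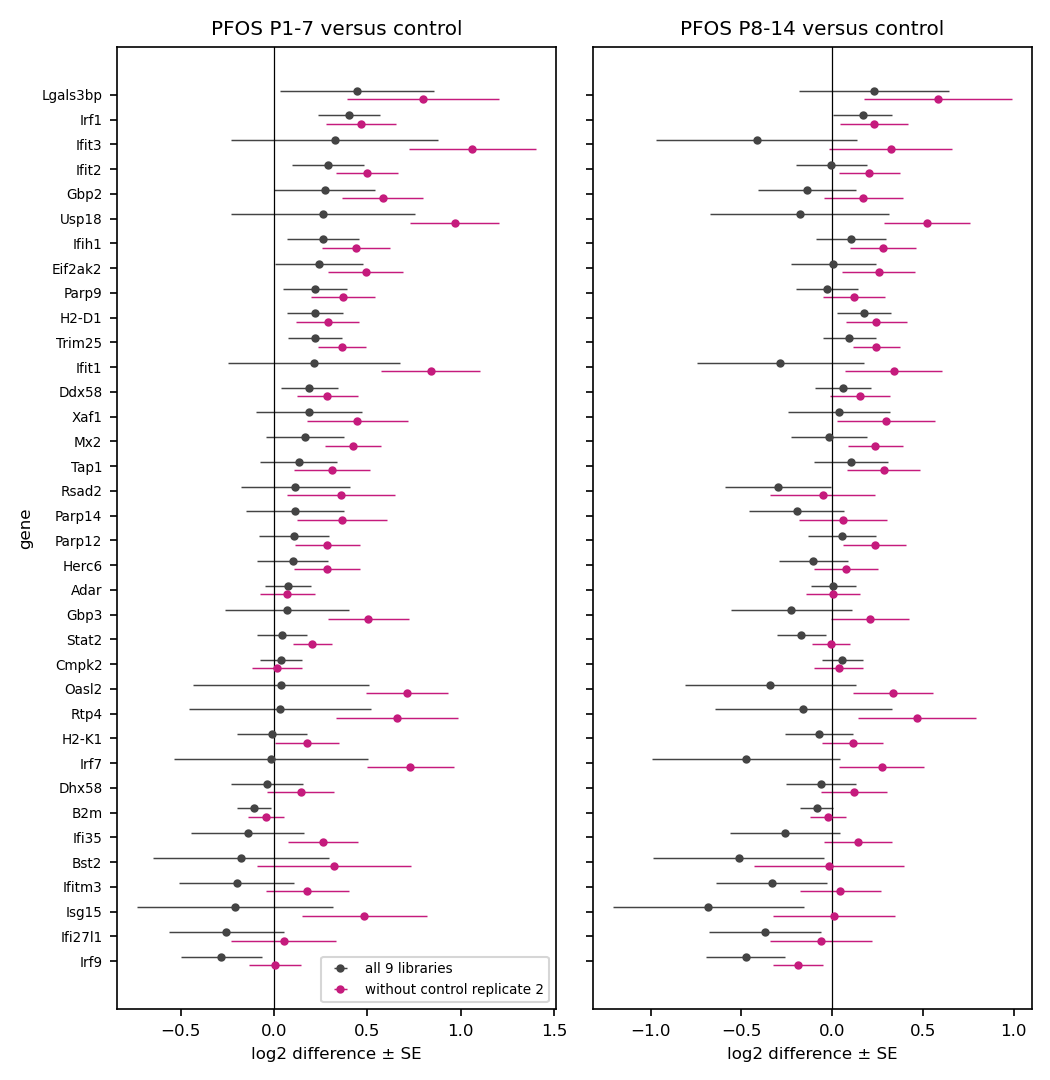
Log2 difference ± SE of each tested member for PFOS P1-7 versus control (left) and PFOS P8-14 versus control (right), with all 9 libraries (grey) and without control replicate 2 (magenta). Leaving out that library moves the members' median from 0.11 to 0.37 on the left and from -0.10 to 0.19 on the right.

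PFOS P8-14 was compared with the same 3 control libraries to read the later window. Here 12 of 36 members were higher and 24 lower, and the members' median log2 difference was -0.10, where 62.1% of all tested genes were higher with a median of 0.06. By limma 0 members and 0 genes (0%) passed the adjusted threshold (smallest adjusted p = 0.424). Without control replicate 1, 1741 genes passed and again 0 members. Without adjustment 0 members reached p below 0.05 in either direction, against 6.33% of all tested genes higher and 4.65% lower. With median-of-ratios scaling, quantile normalization and the length trend removed, 10, 6 and 6 of 36 members were higher, and the genes with an unadjusted p below 0.05 changed from 907 higher and 666 lower to 605 and 1004, 654 and 986, and 513 and 1009. Irf9 was then the 1 member below that p, in each of these settings on the lower side. Irf9 was the only member whose groups did not overlap, with a mean of 13.3 ± 5.3 TPM for the controls against 8.88 ± 0.89 TPM after late exposure (SD, n = 3), against 7.31% of all tested genes above and 5.99% below. Its log2 difference was -0.48 (SE 0.22; limma unadjusted p = 0.0552, adjusted p = 0.455). The next by p were Isg15 with -0.68 (SE 0.52), Stat2 with -0.17 (SE 0.13), Ifi27l1 with -0.37 (SE 0.31), H2-D1 with 0.18 (SE 0.15) and Bst2 with -0.52 (SE 0.47), with limma adjusted p from 0.580 to 0.641.

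Without control replicate 2 the sign of the group turned: 30 of 36 members were higher after late exposure and 6 lower, and the median was 0.19, where all tested genes had 0.04. Without control replicate 3 instead, 3 of 36 were higher and 33 lower, and the median was -0.23. With control replicate 2 left out, 7 of 36 members were above control replicates 1 and 3 in all 3 PFOS P8-14 libraries. They were Ifih1, Ifit1, Ifit2, Mx2, Trim25, Usp18 and Xaf1. Irf9 alone was below both of these controls, where 9.60% of all tested genes were above and 8.18% below. In the fit without control replicate 2, Isg15 differed by 0.01 and Irf9 by -0.19 (SE 0.14).

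The exposure windows were then set against each other, a comparison whose differences do not use the controls, although its errors and p-values come from the spread pooled over all 3 groups. The members were lower in the later window in 34 of 36 cases, with a median log2 difference of -0.20 where all tested genes had -0.03 and 38.8% were higher. All members were read in the same libraries, so this count and those by role below are not separate observations. The SD between replicates of the members' median deviation, pooled over the groups, was 0.25. B2m (0.02) and Cmpk2 (0.02) were the exceptions. No single gene passed: by limma 0 genes (0%) were called, with a smallest adjusted p of 0.9998. Unadjusted, 0 members reached p below 0.05, against 0.467% of all tested genes higher and 0.635% lower. When limma was fitted to the 2 exposed groups alone, 4 members reached an unadjusted p below 0.05 as lower and 0 as higher, against 1% and 0.677% of all tested genes. They were Isg15, Ifit3, Oasl2 and Stat2, with limma unadjusted p of 0.0256, 0.0376, 0.0452 and 0.0456. The limma adjusted p of all 4 was 0.9998 in that fit, and the smallest of any gene, not a member, was 0.170. In 6 members (16.7%), Gbp3, Ifit2, Isg15, Oasl2, Stat2 and Trim25, all 3 PFOS P8-14 libraries were below all 3 PFOS P1-7 libraries, and in 0 above, against 4.15% and 1.90% of all tested genes. With 1 library left out, the members' median ran from -0.25 to -0.12. The latter was without PFOS P8-14 replicate 3, where 27 of 36 members were lower and 9 higher.

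The largest difference between the windows was that of Ifit3, at 11.7 ± 5.6 TPM in PFOS P1-7 and 6.31 ± 2.0 TPM in PFOS P8-14 (SD, n = 3), or -0.74 on the log2 scale with a 95% confidence interval from -1.98 to 0.50. Isg15 stood at 7.04 ± 0.69 and 4.87 ± 1.3 TPM, a log2 difference of -0.47 with an interval from -1.65 to 0.70. Stat2, with the smallest p of the members, stood at 16.6 ± 0.69 and 14.2 ± 0.67 TPM, a log2 difference of -0.21 with an interval from -0.51 to 0.09 (limma unadjusted p = 0.148). Gbp2 differed by -0.41 (SE 0.27), Ifit2 by -0.29 (SE 0.19), Parp9 by -0.25 (SE 0.17), Irf1 by -0.23 (SE 0.16) and Rsad2 by -0.41 (SE 0.29). All of these intervals include 0 with the spread pooled over the 3 groups. By role, 4 of 4 transcription factors, 6 of 6 sensors and regulators, 4 of 4 oligoadenylate synthetase and Ifit genes, 3 of 3 Isg15 conjugation genes, 3 of 3 GTPases and 3 of 3 PARP genes were lower in the later window. So were 8 of 9 other effectors and 3 of 4 antigen presentation genes, the latter with a median of -0.04. Other interferon-stimulated genes were lower in 30 of 38 cases with a median of -0.15, and MHC class II genes higher in 6 of 6 with a median of 0.20. The class II genes were raised in PFOS P8-14 replicate 1, with a median deviation of 0.61, against -0.08 and -0.10 in replicates 2 and 3. In PFOS P1-7 replicates 1 to 3 it was -0.01, -0.31 and -0.11, and 0 of these genes had groups that did not overlap.

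**Figure D5:**
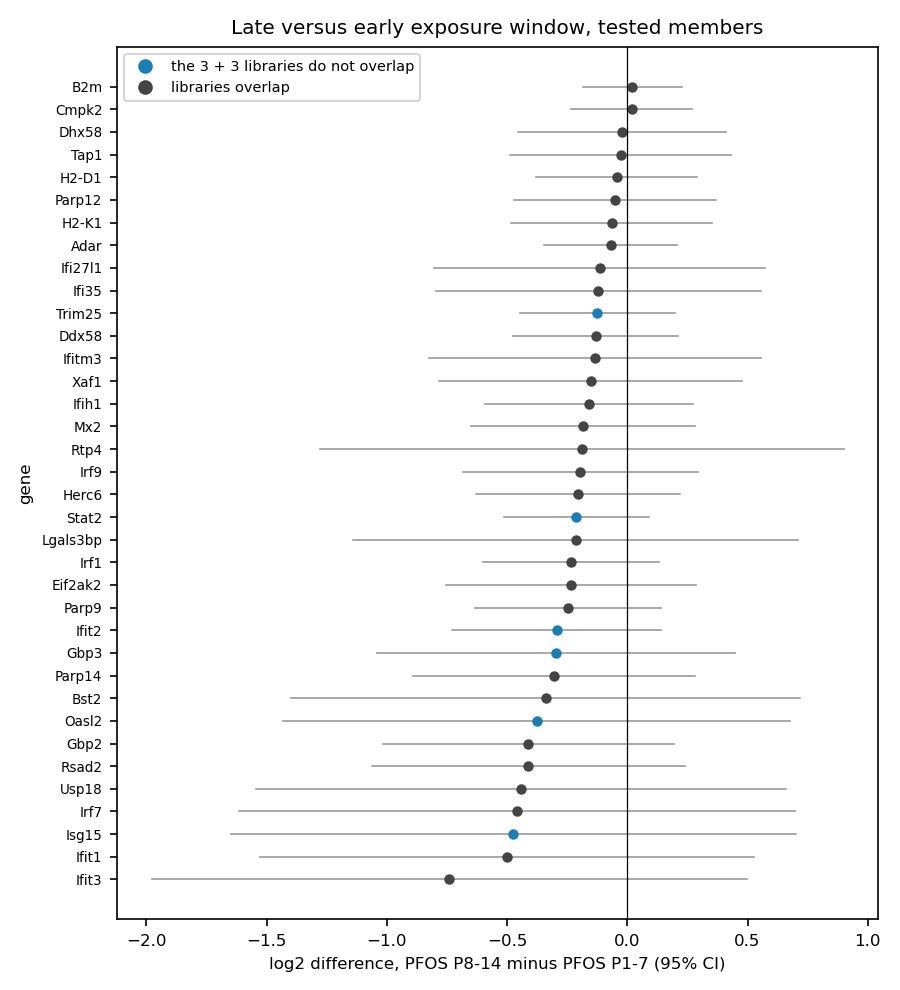
Log2 difference between the exposure windows (PFOS P8-14 minus PFOS P1-7, points) with its 95% confidence interval (lines) for the 36 tested members, in blue where the 3 libraries of each group do not overlap. The points lie below 0 for 34 members, and every interval, from the spread pooled over the 3 groups, includes 0.

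The libraries with high Ttr hold controls, PFOS P1-7 and PFOS P8-14 in numbers of 1, 2 and 2, and those with low Ttr in numbers of 2, 1 and 1, so the comparisons were also read within each set, as values with no test. Between the windows the members' median was -0.13 with high Ttr (32 of 36 lower) and -0.33 with low Ttr (29 of 36 lower). For PFOS P1-7 versus control it was 0.45 with high Ttr (35 of 36 higher), where control replicate 3 is the only control, and -0.05 with low Ttr (17 of 36 higher), where control replicates 1 and 2 are. For PFOS P8-14 versus control it was 0.27 (31 of 36 higher) and -0.37 (36 of 36 lower). The differences from control had opposite signs in the 2 sets, but the sets hold different controls. Control replicate 3 was lowest, or tied for it, for 23 members, and control replicate 2 was mostly the highest library. With low Ttr the windows are compared by 1 library each, so their shared sign is only a description. For all tested genes the medians with high and low Ttr were 0.12 and 0.07 for PFOS P1-7 versus control. They were 0.09 and 0.03 for PFOS P8-14 versus control, and -0.02 and -0.04 between the windows.

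The upstream genes of the pathway were read at an unadjusted p below 0.05, which 12.5% of all tested genes passed as higher and 5.79% as lower in PFOS P1-7, and 6.33% and 4.65% in PFOS P8-14. In PFOS P1-7 versus control, 4 of 19 receptors, kinases and brakes were higher and 0 lower, with the smallest p in Stat3 (0.35, SE 0.11), the ubiquitous cytokine-activated factor, Pias1 (0.40, SE 0.14), a brake on STAT signalling, and Ifnar2 (0.34, SE 0.14). Of 13 tested sensors and adaptors 2 were higher, the kinase Tbk1 (0.32, SE 0.12) and Traf6 (0.31, SE 0.13), with Tlr9 next (0.38, SE 0.17). In PFOS P8-14 versus control Ifnar2 (0.44, SE 0.14) and Tlr9 (0.46, SE 0.17) were higher and Irf3 (-0.40, SE 0.13) lower, and Ifngr2, Tbk1 and Mavs, next in their lists, differed by 0.15 to 0.24 (SE 0.09 to 0.15). In PFOS P8-14, 1 gene of the first list was higher and 1 lower, and 1 of the second was higher and 0 lower. In these lists the limma adjusted p were at least 0.2099 in the first comparison and 0.426 in the second. Between the windows none passed in any of the lists, with Socs3 at 0.28, Jak2 at -0.20, Stat3 at -0.20, Tlr3 at -0.25, Traf6 at -0.22 and Mb21d1 at -0.27.

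Of the 38 other interferon-stimulated genes tested, 1 was higher and 1 lower at an unadjusted p below 0.05 in PFOS P1-7, and 0 were higher and 2 lower in PFOS P8-14, beside the same shares of all tested genes. Ifitm1, a relative of Ifitm3, was among the lower ones in both. It stood at 6.57, 12.56 and 14.11 TPM in control, at 4.33, 4.73 and 3.88 TPM in PFOS P1-7, and at 7.4, 5.02 and 3.76 TPM in PFOS P8-14. All PFOS P1-7 libraries were below all controls, and PFOS P8-14 overlapped both. The log2 difference in PFOS P1-7 was -1.13 (SE 0.27; limma adjusted p = 0.181), and in PFOS P8-14 it was -0.90 (SE 0.27; limma adjusted p = 0.426). Slfn2 (0.61, SE 0.27) and Slfn8 (0.47, SE 0.22) followed in PFOS P1-7, and Gbp5 (-0.42, SE 0.17) and Isg20 (-0.42, SE 0.21) in PFOS P8-14. Between the windows the list was led by Slfn8 (-0.44, SE 0.22), Irgm1 (-0.39, SE 0.20) and Parp11 (-0.17, SE 0.09). Of 16 class I processing genes 1 was higher and 1 lower by the same measure in each exposed group. Psmb10, an immunoproteasome subunit, differed by -0.31 (SE 0.10) and -0.29 (SE 0.10) in the exposed groups, and Tap2, the partner of Tap1, by 0.42 (SE 0.15) and 0.30 (SE 0.15). Erap1 (0.30, SE 0.14) followed in PFOS P1-7, and Tapbpl led in PFOS P8-14 (0.40, SE 0.12). Between the windows Psmb9 (-0.39, SE 0.21), Tapbpl (0.19, SE 0.12) and H2-M3 (0.28, SE 0.22) led, with Psmb9 lower and Tapbpl higher in all 3 libraries. Of the class II genes H2-DMa was lower in PFOS P1-7 (-0.35, SE 0.11; limma unadjusted p = 0.0110), with all 3 libraries below the controls, and at -0.21 (SE 0.11) in PFOS P8-14. H2-Aa and Cd74 (-0.37, SE 0.24 and -0.22, SE 0.21 in PFOS P1-7) and, between the windows, H2-Ab1 (0.53, SE 0.32), H2-Eb1 (0.38, SE 0.31) and Cd74 (0.25, SE 0.21) did not pass. H2-Aa (-0.22, SE 0.24) and H2-Eb1 (0.27, SE 0.31) were next in PFOS P8-14. Both exposed groups share the 3 controls, so their differences from control are given side by side and not counted as 2 observations.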

How the data were processed

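Hippocampal RNA from 9 samples was sequenced as stranded mRNA libraries, per the labels' protocols. The authors deposited TPM for each gene symbol with 2 decimals. Tools named in the submitters' processing notes are RSEM 1.3.3, STAR 2.5.3a, fastp 0.21.0 and bcl2fastq, with build mm10. Which annotation was used, and how reads shared by similar genes were split, is not given in the sources used here. Depth cannot be read from TPM, so it is unknown for every library and no counting error is printed.

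Values were tested as log2(TPM + 1) with limma 3.58.1 (R 4.3.3) on the 14336 genes that reached 1 TPM in 3 libraries or more. A single fit held the 3 group means with a variance trend, and p-values were two-sided and adjusted by Benjamini-Hochberg over all tested genes at a threshold of 0.05. The fit was tested on simulated data. A log2 difference on this scale, always the first group minus the second, understates the change of low genes. Members are given in every library where their unadjusted p was below 0.05 or among the 6 smallest of a comparison, where their range was among the 5 widest, or where a single library led by over 1. Of other lists, the 3 leading genes by p are named per comparison, and genes named beyond this rule were chosen after their values were seen. Values of 2 genes of the pathway and marker lists are not reported here. The members and lists were chosen with earlier results of these data known. Positions are from RefSeq for GRCm38.p6. Alternatives covered pseudocounts, filters, scaling, a replicate block, the groups in the fit, array weights, transcript length (GENCODE, 93.9% of tested genes), a choroid plexus covariate and each library left out. Figures were drawn with matplotlib 3.10.9.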

Additional observations from a re-analysis of the deposited data

How the results depend on the processing

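In all 22 alternatives to the fit reported above, 0 members passed the adjusted threshold in any of the 3 comparisons. For PFOS P1-7 versus control the count of genes called over the whole table was 2914 with array weights and 0 to 2658 with 1 library left out, the highest without control replicate 1 and 1 gene without PFOS P8-14 replicate 1. For PFOS P8-14 versus control it was 1053 with array weights and 0 to 1741 with 1 library left out, again highest without control replicate 1. The members' median in PFOS P1-7 versus control was -0.038 with array weights and ran from -0.0404 (without control replicate 3) to 0.37 (without control replicate 2) with 1 library left out. It was 0.37 without both control replicate 2 and PFOS P1-7 replicate 2, a setting chosen after seeing the data. In PFOS P8-14 versus control it ran from -0.23 to 0.19 with 1 library left out, with the sign turned without control replicate 2. It was 0.13 with the length trend removed and control replicate 2 left out, the other setting chosen after seeing the data. PFOS P1-7 libraries do not enter the differences of PFOS P8-14 from control, so without both of those libraries the median stayed at 0.19. The median-of-ratios scaling moved the median of all tested genes from 0.09 to 0.01 in the first comparison and from 0.06 to 0.01 in the second. Between the windows, 27 to 35 of 36 members were lower and the median ran from -0.25 to -0.12 over the 18 alternatives, chosen with the main settings, that tested all 36. Of these, the replicate block, the fit of the compared groups alone and each fit without a control cannot change the differences between the windows. Without control replicate 2, 9 members turned from lower to higher in PFOS P1-7 and 18 in PFOS P8-14. In PFOS P8-14, Irf7 went from -0.47 to 0.27, Ifit3 from -0.42 to 0.32 and Oasl2 from -0.34 to 0.33. With all 9 libraries the SE of these differences was 0.52, 0.55 and 0.47, so each lay within 1 SE of 0. Trim25 was at -0.0243 in PFOS P1-7 with the length trend removed, a setting in which the members' median there was 0.0005 (0.013 with quantile normalization). Irf9 there ran from -0.46 to 0.0073 with 1 library left out, the highest without control replicate 2. Isg15 in PFOS P8-14 ran from -1.34 (without control replicate 3) to 0.0090 (without control replicate 2), was at 0.0090 without both libraries, and at 0.0106 with the length trend also removed, where Bst2 was at 0.0014. The causes were not tested. Correlations of deviations do not settle whether the replicate numbers pair the libraries. Between groups, they ran from -0.47 to 0.53 for same-numbered libraries and from -0.60 to 0.67 for differently numbered ones. With the replicate block 0 genes passed in all 3 comparisons (smallest limma adjusted p = 0.124, 0.237 and 0.9998). The members' medians stayed at 0.11, -0.10 and -0.20, because a block balanced over the groups cannot change them. Groups of 3 libraries, unknown depth and possible sharing of reads between paralogs limit these values.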
